A study of Mus musculus with 12 samples.

Results

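Mouse chromosome 5 was examined gene by gene in livers and liver tumours that lack Atg7 or both Atg7 and Hmgb1. Of 1382 chromosome 5 genes in the deposited count table, the 851 with at least 1 CPM, the reads of a gene scaled to the library's total, in 3 or more of the 12 libraries were followed, ordered by their start, and 531 were not, of which 185 had no read in any library. Just inside that limit lay Dancr, Actr3b and Caln1, whose third-highest values were 1.003, 1.005 and 1.03 CPM, and just outside it lay Ksr2, Jakmip1 and Magi2, at 0.960, 0.958 and 0.933 CPM. The chromosome had been picked because earlier results on these data pointed to it, so its departures from the rest of the genome are given as descriptions.

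Liver RNA came from C57BL/6 mice aged 15 months in 4 groups of 3 libraries, which were non-tumour liver and tumour of Atg7 knockout (Atg7KO) mice, and non-tumour liver and tumour of Atg7 and Hmgb1 double knockout (DKO) mice. Deletion of Atg7 is thus shared by all 12 libraries, and no wild-type liver is among them. Whether the deletions were germline or limited to hepatocytes, and whether the libraries of a group came from separate animals, is not given in the sources used here, and p-values therefore reflect the variation among these samples, which may be technical. Libraries carry numbers 1, 2 and 3 in their labels, values below follow that order, and DKO means libraries so labelled.

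Atg7 is an enzyme that autophagosome formation needs, and mice whose livers lack it are known to accumulate p62 and to develop liver tumours with age. Hmgb1, itself on chromosome 5, encodes an abundant DNA-bending chromatin protein that also acts as an alarm signal outside the cell. Tumours often gain or lose whole chromosomes or arms, and the RNA of the genes there tends to shift together, so the order of genes along a chromosome can be read in expression data. Chromosome 5 holds many liver genes, among them the albumin and Afp cluster, the Ugt2 and Sult1 detoxifying enzymes and the Cyp3a cytochromes, beside growth control genes such as Cdk6, Pdgfra and Kit.

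The sharpest pattern described below is a set of stretches of neighbouring genes in DKO tumour 2. Promoters are printed for Hps4, Pomp and Slc46a3, which lie beside edges of these stretches, and for Hmgb1, which lies at none. Each is given 5′ to 3′ on the gene's own strand, from 250 bases before to 50 after the start, from RefSeq on GRCm38.p6, with every CG pair in capitals. Hps4, a lysosome-related organelle gene, is the last member before the long high stretch and starts within chr5:112342845-112343144 on the plus strand. Pomp, a proteasome assembly factor at chr5:147860378-147860677 on the plus strand, is the last member inside it, and Slc46a3, a lysosomal transporter at chr5:147894766-147895065 on the minus strand, is the first after it. Hmgb1, at chr5:149053008-149053307 on the minus strand, lies in the low stretch at the chromosome's end.
Hps4: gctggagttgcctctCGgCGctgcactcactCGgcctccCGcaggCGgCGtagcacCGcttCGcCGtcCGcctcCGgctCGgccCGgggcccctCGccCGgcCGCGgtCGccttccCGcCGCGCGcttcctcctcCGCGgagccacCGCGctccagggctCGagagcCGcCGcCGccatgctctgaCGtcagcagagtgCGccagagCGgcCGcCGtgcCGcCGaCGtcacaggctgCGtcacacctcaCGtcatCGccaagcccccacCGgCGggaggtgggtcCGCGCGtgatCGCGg
Pomp: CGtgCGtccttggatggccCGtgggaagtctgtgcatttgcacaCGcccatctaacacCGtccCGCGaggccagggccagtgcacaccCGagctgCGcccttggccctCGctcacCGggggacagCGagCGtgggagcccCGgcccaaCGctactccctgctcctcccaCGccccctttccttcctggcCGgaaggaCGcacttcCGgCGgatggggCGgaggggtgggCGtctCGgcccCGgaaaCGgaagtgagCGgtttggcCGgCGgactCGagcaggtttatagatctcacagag
Slc46a3: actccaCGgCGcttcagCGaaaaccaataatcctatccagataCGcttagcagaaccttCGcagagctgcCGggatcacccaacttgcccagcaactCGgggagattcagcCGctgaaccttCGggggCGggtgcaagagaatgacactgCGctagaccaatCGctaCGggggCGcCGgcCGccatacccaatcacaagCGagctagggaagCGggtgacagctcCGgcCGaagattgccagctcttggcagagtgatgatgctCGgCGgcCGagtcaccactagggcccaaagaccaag
Hmgb1: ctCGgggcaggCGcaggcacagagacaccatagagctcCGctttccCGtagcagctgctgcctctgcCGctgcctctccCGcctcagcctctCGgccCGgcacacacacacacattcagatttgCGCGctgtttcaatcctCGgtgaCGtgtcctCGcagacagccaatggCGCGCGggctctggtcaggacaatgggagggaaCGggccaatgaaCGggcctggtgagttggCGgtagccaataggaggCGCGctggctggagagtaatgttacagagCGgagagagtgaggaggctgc
The CG pair reads alike on both strands and cannot overlap itself. There are 48, 29, 23 and 22 of them in these 4 promoters in the order above, and as many or more occur in 1.22%, 12.9%, 21.5% and 23.1% of the 32851 promoters in the RefSeq table. The promoters of Pomp and Slc46a3 thus carry CG pairs in numbers found in the upper part of all promoters. These genes point toward each other, so their promoters lie at the ends far from the edge between them. That edge moved with another reference, as described below.

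Libraries held 18292190 to 32354958 reads, and chromosome 5 members took 6.93% to 12.9% of them, of which albumin alone took 1.51% to 7.56% of all reads. Y-linked genes had 0 to 2 reads in Atg7KO and 1898 to 4639 in DKO libraries. Xist had 1130 to 12216 reads in Atg7KO and 0 to 2 in DKO libraries. By these reads Atg7KO libraries look female and DKO libraries male. Genotype and sex thus cannot be told apart in any comparison between genotypes. All 12 hepatocyte markers were present in every group, with a summed level of 35002 to 150636 CPM. Hmgb1 reads were 2720 to 4355 in Atg7KO and 1732 to 3144 in DKO libraries, and Atg7 reads were 88 to 401 over all. Reads over a whole gene can also come from undeleted exons or from cells that escaped deletion, so they are no check of the genotype. In such bulk tissue, fewer cells of a type and less RNA per cell cannot be told apart.

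Taken as a whole, chromosome 5 was slightly high in all 3 DKO tumours and low or level in Atg7KO tumours. The chromosome score is the median, over members, of each gene's log2 CPM in a library minus its mean over the 12 libraries, after removing the trend with gene length, less the same median over the 12027 genes of the other 18 autosomes. It was 0.0045, 0.0040 and -0.014 in Atg7KO non-tumour liver and 0.018, -0.00098 and -0.0033 in DKO non-tumour liver. In the Atg7KO tumours the score was -0.010, -0.12 and -0.11, so that tumour 1 lay within the range of the non-tumour libraries and the others below it. In the DKO tumours the score was 0.16, 0.097 and 0.096, above all 9 other libraries. The share of members above 0 was 61.1%, 54.3% and 65.3% in the DKO tumours and 48.4%, 38.2% and 35.6% in the Atg7KO tumours. For scale, 3 copies in place of 2 would set a library 0.58 above one with 2 copies in log2. That holds if every cell carried them and RNA followed copy number. The score would be smaller, since the mean over the 12 libraries includes the library itself. DNA copy number was not measured here.

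**Figure D1:**
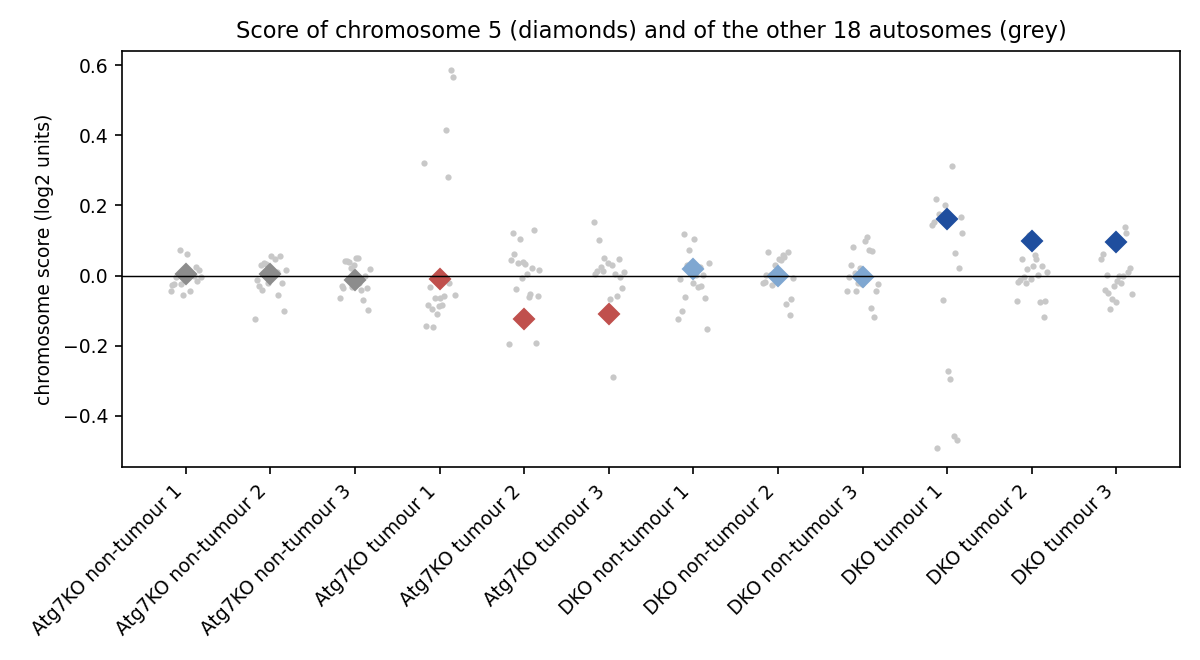
Chromosome 5 score of each of the 12 libraries (log2, vertical axis) beside the scores of the other autosomes in the same library, by group. The 3 DKO tumours sit at 0.16, 0.097 and 0.096, above the 6 non-tumour libraries, while other autosomes reach farther from 0 in several tumours.

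Other autosomes moved as much or more. Group means were -0.0019 ± 0.011 and -0.081 ± 0.062 (SD, n = 3) in Atg7KO non-tumour liver and tumour, and 0.0046 ± 0.012 and 0.12 ± 0.036 (SD, n = 3) in the DKO groups. The tumour minus non-tumour difference in DKO was thus 0.11, the second highest of 19 autosomes, which ran from -0.24 for chromosome 4 to 0.13 for chromosome 18. In Atg7KO the difference was -0.079, number 16 of 19 from the highest, with others from -0.13 for chromosome 13 to 0.22 for chromosome 18. Between genotypes the score differed by 0.0065 in non-tumour liver and by 0.20 in tumours, where the others ran from -0.27 for chromosome 14 to 0.25 for chromosome 13. In single tumours, DKO tumour 1 had 8 other autosomes beyond 0.2 in either direction, from -0.49 for chromosome 4 to 0.31 for chromosome 13, and Atg7KO tumour 1 had 5, up to 0.59 for chromosome 17. A whole-chromosome score near 0.1 was therefore not set apart from the other autosomes in these libraries.

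Below the level of the whole chromosome, DKO tumour 2 stood apart. In windows of 10 Mb its median deviation ran from -0.34 at 80 to 90 Mb to 0.45 at 140 to 150 Mb, a range of 0.78. The other 11 libraries had ranges of 0.17 to 0.47, with DKO tumour 1 the highest. In blocks of 50 neighbouring members, 5 of the 17 chromosome 5 blocks of DKO tumour 2 lay above and 4 lay below all 230 blocks of the other autosomes in that library, and its blocks ran from -0.38 to 0.54 against -0.28 to 0.32 elsewhere. Held to its own blocks on the other autosomes, no other library had a chromosome 5 block outside their range, with the exception of 1 block above it in DKO tumour 3, at 0.222 against 0.218. Chromosome 5 blocks of DKO tumour 1 reached 0.44 and those of Atg7KO tumour 3 -0.36, within the wider ranges of those libraries. Neighbouring members also resembled each other more, as the correlation of a member's deviation with the next one's over 850 pairs was 0.39 in DKO tumour 2 and 0.08 to 0.21 in the other libraries, a description over genes that share a library. The score of the whole chromosome hid this, since high and low stretches offset each other.

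**Figure D2:**
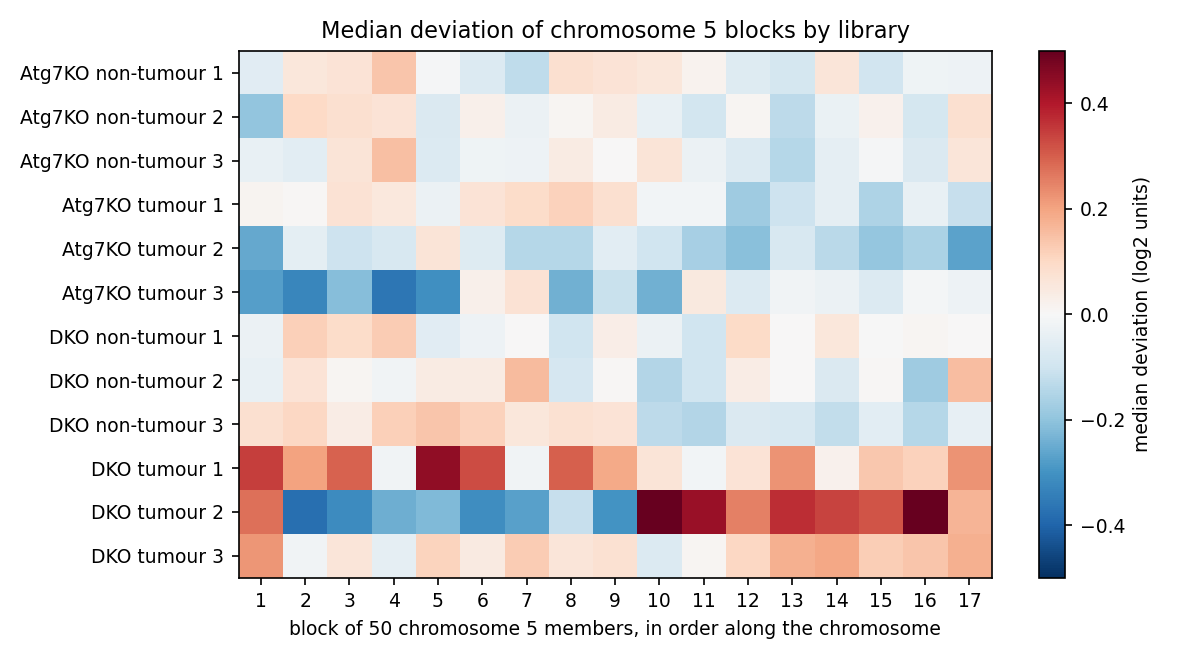
Median deviation (log2, colour) of each block of 50 members, in order along chromosome 5, by library. In DKO tumour 2, 5 of 17 blocks lie above and 4 lie below every block of the other autosomes, which are not drawn.

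Cut into stretches of constant level, chromosome 5 of DKO tumour 2 fell into 6 stretches, high and low in turn. The first, from Cdk6 to Sema3e (3344312 to 14256689, mm10), held 32 members with a median deviation of 0.47, of which 87.5% were above 0. From Cacna2d1 to Slc10a6 (15934691 to 103629403) 352 members stood at -0.28, with 19.03% above 0. A short high stretch of 27 members from Aff1 to Glmn (103754162 to 107597888) stood at 0.34, and 45 members from Rpap2 to Hps4 (107597373 to 112378424) stood at -0.38. The longest high stretch ran over 372 members from Adrbk2 to Pomp (112910478 to 147875778) at 0.40, with 90.3% above 0. The last 23 members, from Slc46a3 to Rfc3 (147878441 to 151651208), stood at -0.41. The long low stretch thus spans 87.7 Mb and the long high one 35.0 Mb.

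Each change of level was placed between neighbouring members by construction, so the gaps describe where these edges lie and not how sharp they are. Pomp and Slc46a3 are 0.00266 Mb apart, Slc10a6 and Aff1 0.125 Mb, Hps4 and Adrbk2 0.532 Mb and Sema3e and Cacna2d1 1.68 Mb, while Glmn and Rpap2 overlap. Adrbk2, which encodes a G protein-coupled receptor kinase, stood at 9.17, 20.6 and 16.5 CPM in the DKO tumours and at 6.71, 10.1 and 10.7 CPM in DKO non-tumour liver, so that tumour 2 was the highest. Hps4 was 14.6, 7.35 and 11.2 CPM in the DKO tumours and 8.41, 9.04 and 10.6 CPM in DKO non-tumour liver, and here tumour 2 was the lowest. Reads of overlapping genes such as Glmn and Rpap2 cannot be assigned with certainty, because the strand setting of the counting is not given in the sources used here. With the 6 non-tumour libraries as reference there were again 6 stretches, but the edge after the long high stretch moved past Slc46a3, to between Ubl3 and 2210417A02Rik, and Slc10a6 joined the short high stretch. Members near the edges did not all keep to their side. Sema3c at 0.67 and Gnai1 at 1.25 were high just after the first high stretch, Cds1 at 1.92 was high just before the short one and Hsd17b13 at -0.79 was low within it, and Slc7a1 at 0.29 and Ubl3 at 0.16 were above 0 just after Pomp. The edges come from the values themselves, so the medians of the stretches describe DKO tumour 2 and are no test.

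**Figure D3:**
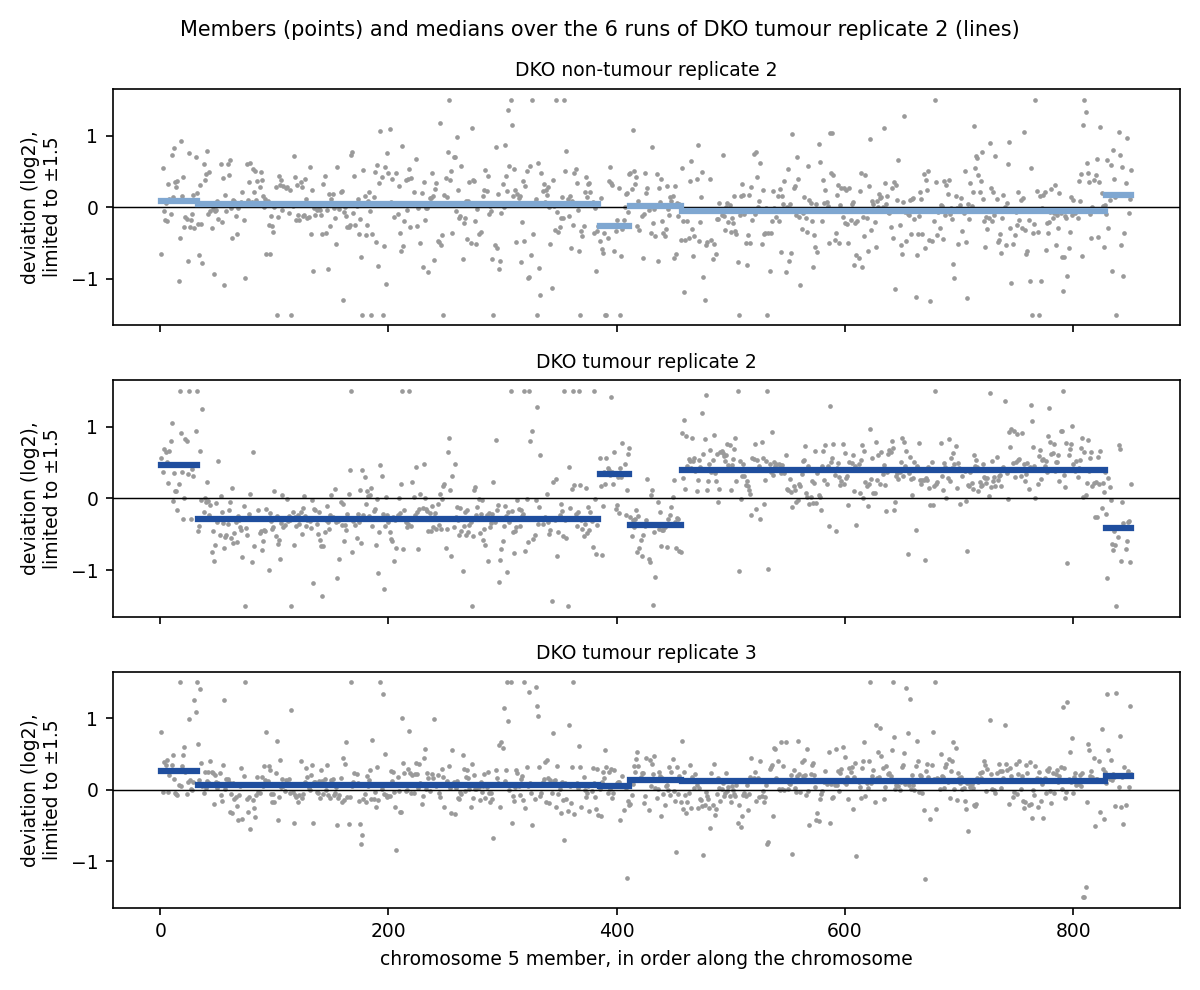
Deviation of each member (log2, vertical axis, limited to ±1.5) by its order along chromosome 5 (horizontal axis) in DKO non-tumour liver 2, DKO tumour 2 and DKO tumour 3, with lines at the median of each of the 6 stretches found in DKO tumour 2. The lines step between 0.47 and -0.41 in DKO tumour 2 and stay within -0.27 and 0.26 in the other panels.

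The same genes did not form these steps in DKO non-tumour liver 2, where the medians of the 6 stretches were 0.08, 0.05, -0.27, 0.02, -0.06 and 0.16. They were 0.43, 0.26, 0.05, 0.23, 0.08 and 0.08 in DKO tumour 1 and 0.26, 0.06, 0.06, 0.13, 0.11 and 0.20 in DKO tumour 3, all above 0. A further correction for the GC content of transcripts gave 0.45, -0.28, 0.29, -0.39, 0.40 and -0.42 in DKO tumour 2. It covered all members, of which 827 had a GC value and the rest were given the median of autosomal genes. Stretches did differ in make-up. Median transcript GC content was 53.3% in the long high stretch and 47.5% in the long low one, median gene length was 2668.5 and 3082 bases, and there were 10.6 and 4.02 members per Mb. The first high stretch had neither feature, with 44.3% GC, 3907 bases and 3.00 members per Mb.

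Set against the 3 DKO non-tumour libraries alone, most members of each stretch lay outside their range on the side of the stretch. In DKO tumour 2, 22 of 32 members (68.8%) of the first high stretch, 16 of 27 (59.3%) of the second and 206 of 372 (55.4%) of the long one lay above all 3 non-tumour libraries, against 29.3% of genes on the other autosomes. In the low stretches 188 of 352 (53.4%), 26 of 45 (57.8%) and 14 of 23 (60.9%) lay below all 3, against 33.8% elsewhere. Since the stretches were drawn from the same tumour values, these shares are a description. Some other tumours came near them. Of the first high stretch, 56.3% lay above in DKO tumour 1 and 53.1% in DKO tumour 3, against 36.2% and 29.7% elsewhere. Of the long low stretch, 51.4% lay below the Atg7KO non-tumour libraries in Atg7KO tumour 3, against 29.2% elsewhere. In DKO tumours 1 and 3 only 29.5% and 23.6% of it lay below, against 39.3% and 28.7%.

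**Figure D4:**
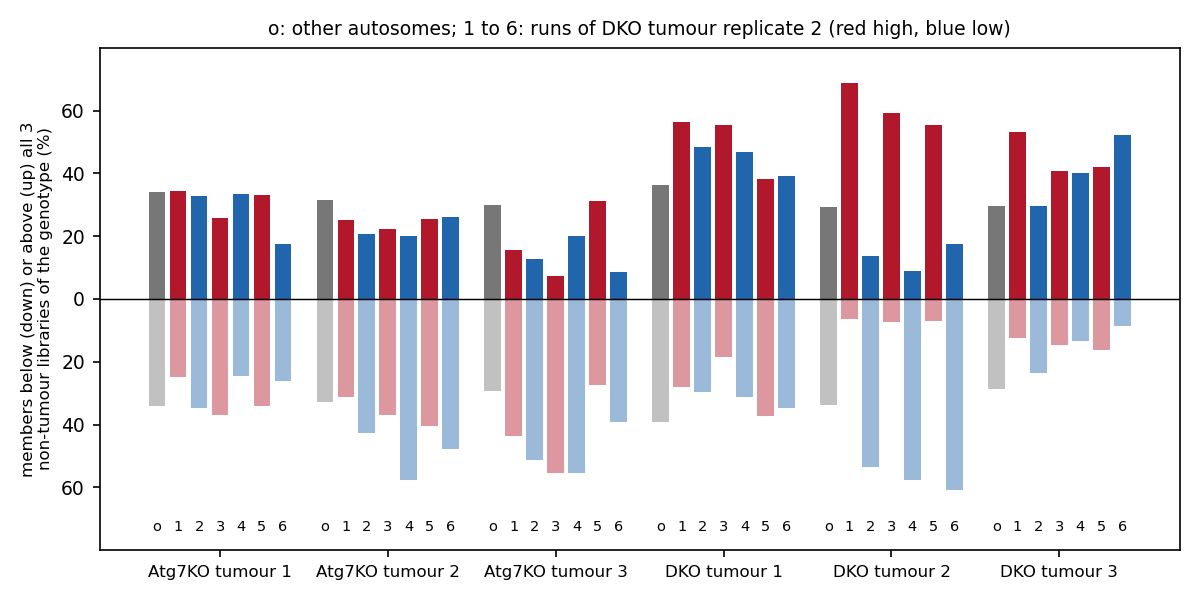
Percent of members in each of the 6 stretches that lie above or below all 3 non-tumour libraries of the same genotype, for each tumour, beside the other autosomes. For DKO tumour 2 the high stretches reach 68.8%, 59.3% and 55.4% above and the low stretches 53.4%, 57.8% and 60.9% below.

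Lists of genes of unlike function mostly had medians on the side of their stretch in DKO tumour 2, with the exceptions of chemokine and growth factor genes. The stretches were cut from these same deviations, so lists tend to fall on that side by construction. Deviations of lists by stretch, here and below, are descriptions and no property of a list. The 12 chemokine and inflammation genes in low stretches had a median deviation of 0.12 with 7 above 0, and the 2 in high stretches had -0.15. The 5 growth factor and receptor genes in high stretches had a median of -0.08 with 2 above 0, and the 12 in low stretches had -0.18 with 3 above 0. Of 14 cytoskeleton genes on chromosome 5, 13 lay in high stretches, all 13 had a deviation above 0 with a median of 0.61, and 12 were above all 3 DKO non-tumour libraries. Over all members of the high stretches, 55.4% to 68.8% lay above all 3, against 29.3% of genes on the other autosomes. Actb, the cytoplasmic actin, was 1065, 1598 and 1079 CPM in DKO non-tumour liver and 1292, 1857 and 1365 CPM in the DKO tumours, with tumour 2 the highest of the 12 libraries. Rac1, a small GTPase that drives actin assembly, was 222, 229 and 210 CPM in DKO non-tumour liver and 279, 350 and 275 CPM in tumours, again with tumour 2 at the top. Arpc1b, a subunit of the Arp2/3 actin nucleator, was 100.1, 164 and 133 CPM in non-tumour liver and 61.7, 264 and 228 CPM in tumours, so the groups overlapped through tumour 1. Mapre3, a microtubule end-binding protein in the long low stretch, had a deviation of -0.20 and was the exception.

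Ribosomal and respiratory chain genes split by stretch, and the stretches were cut from these same values. The 11 in high stretches had a median deviation of 0.41 in DKO tumour 2 with 11 above 0, and the 9 in low stretches had a median of -0.27 with 0 above 0 and 8 below all 3 DKO non-tumour libraries. Over all members of the low stretches, 53.4% to 60.9% lay below all 3, against 33.8% of genes on the other autosomes. Rplp0, a ribosomal stalk protein in the long high stretch, had a deviation of 0.69, and Eif3b, a translation initiation factor subunit, 0.91. Rpl5, a large-subunit ribosomal protein in a low stretch, had -0.30, and Atp5k, an ATP synthase subunit, -0.58. Metabolic enzymes and their regulators split too, with a median of 0.34 for 19 in high stretches and -0.44 for 16 in low ones. Among the low, Khk, the ketohexokinase of fructose use, was at -0.53 and Hadha, of mitochondrial fatty acid oxidation, at -0.59. Among the high, Psph, the last enzyme of serine synthesis, was at 0.79 and Asl, of the urea cycle, at 0.47.

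Chromatin regulators had medians of 0.42 for 10 in high and -0.25 for 8 in low stretches, and cell cycle and DNA repair genes 0.22 for 12 and -0.42 for 11. All 14 interferon-induced genes lay in high stretches, with a median of 0.41 and 10 above all 3 DKO non-tumour libraries. The share above all 3 was 55.4% to 68.8% over all members of the high stretches and 29.3% on the other autosomes. Oasl1, an oligoadenylate synthase-like antiviral protein, was 104, 123 and 231 CPM in DKO non-tumour liver and 109, 277 and 202 CPM in tumours. All 11 Ugt2 and Sult1 genes lay in the long low stretch, with a median of -0.38 and 9 below all 3 DKO non-tumour libraries. The share below all 3 was 53.4% over all members of that stretch and 33.8% on the other autosomes. Members of the Ugt2b and Cyp3a families are near copies of each other, so reads may be split between them. Several genes did not share their stretch's level. Afp, the fetal serum protein used as a liver tumour marker, had a deviation of 2.62 although it lies in the long low stretch, as did Sult1e1, and Cit, a kinase of cell division in the long high stretch, had -1.01.

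Elsewhere the members formed few stretches. In 8 of the 12 libraries the chromosome was 1 stretch, a number that fell to 5 with a penalty of 1.5 ln(n) and to 6 with the GC correction. Atg7KO tumour 3 changed level once, with 261 members from Cdk6 to Tec at -0.27 and 590 from Slain2 to Rfc3 at -0.04. DKO tumour 3 stood at 0.06 over 533 members from Cdk6 to Dtx1 and at 0.16 over 318 from Oas2 to Rfc3, an edge that moved to between Rfc5 and Fbxo21 with the GC correction. DKO non-tumour liver 3 stood at 0.10 up to Pgam5 and at -0.10 after it, and these became 0.06 and -0.06 with the GC correction. In DKO tumour 1, 375 of 851 members (44.1%) lay above all 3 non-tumour libraries against 36.2% of genes on the other autosomes. In Atg7KO tumours 2 and 3, 358 (42.1%) and 346 (40.7%) members lay below all 3 against 32.9% and 29.2%.

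Gene by gene, no member passed an adjusted p of 0.05 in DKO tumours against DKO non-tumour liver in edgeR's quasi-likelihood test with Benjamini-Hochberg adjustment over 13290 genes, of which 0% were called. At an unadjusted p under 0.05, 136 members were higher and 48 lower, 16.0% and 5.64% of members, against 12.7% and 11% of all genes. The groups did not overlap for 142 members that were higher and 66 that were lower, against 13.7% and 14.4% of all genes. DESeq2 called 65 higher and 14 lower of 843 members tested, against 4.47% and 3.73% of all genes. The median log2 fold change was 0.13 over members and 0.01 over all genes. Fold changes followed gene length in this comparison, with a Spearman correlation across genes of 0.53. That correlation was -0.27 in the Atg7KO tumour comparison, and between genotypes 0.38 in tumours and -0.51 in non-tumour liver. Fold changes of single genes are given without a length correction unless an offset is named. Leaving out DKO non-tumour liver 3 gave 34 called members of 851, 25 higher and 9 lower, and 680 called genes of 13290. That is a smaller share of members than of all genes.

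By stretch of DKO tumour 2, the members past an unadjusted p of 0.05 in that comparison were 12 higher and 0 lower of 32 in the first high stretch and 86 higher and 12 lower of 372 in the long high one, against 12.7% and 11% of all genes. The short high stretch had 3 higher and 0 lower of 27. In the low stretches there were 28 higher and 30 lower of 352, 3 and 4 of 45, and 4 and 2 of 23. Tumour 2 is 1 of the 3 tumours in this comparison, so these counts share its values.

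Among growth and signalling genes, Smurf1, a ubiquitin ligase of TGF-beta signalling (144876495 to 144965830), was 24.9, 19.6 and 27.0 CPM in DKO non-tumour liver and 61.7, 56.2 and 48.6 CPM in DKO tumours. The groups did not overlap, and the log2 fold change was 1.22 ± 0.18 (SE) with an adjusted p of 0.110 in edgeR. In Atg7KO, Smurf1 was 31.2, 26.2 and 30.7 CPM in non-tumour liver and 28.6, 24.5 and 30.9 CPM in tumours, which overlap. Cdk6, a kinase that starts the cell cycle with D-type cyclins, was 5.05, 4.72 and 7.10 CPM in DKO non-tumour liver and 16.1, 10.3 and 12.7 CPM in DKO tumours. Its log2 fold change was 1.21 ± 0.24 (SE), with an adjusted p of 0.110 in edgeR, and its Atg7KO values of 5.79, 6.17 and 6.83 CPM in tumours lay close to the 6.05 to 6.26 CPM of non-tumour liver. Ptpn11, the phosphatase SHP2 of growth factor signalling, was 62.6, 60.3 and 77.2 CPM against 148, 134 and 103 CPM, with no overlap and a log2 fold change of 0.94 ± 0.21 (SE).

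Sema3e, a secreted guidance factor for axons and vessels and the last member of the first high stretch, was nearly silent in 9 libraries, at 0.103 to 0.631 CPM, and stood at 34.8, 5.10 and 4.48 CPM in the DKO tumours. Its log2 fold change was 4.93 ± 0.90 (SE) with an adjusted p of 0.110 in edgeR, and tumour 1 was far above the others. Ywhag, a 14-3-3 adaptor protein, was 122, 108 and 144 CPM in DKO non-tumour liver and 217, 243 and 217 CPM in DKO tumours. In Atg7KO it was 154, 128 and 141 CPM in non-tumour liver and 177, 199.6 and 225 CPM in tumours, so both genotypes had no overlap, with log2 fold changes of 0.86 ± 0.18 and 0.51 ± 0.18 (SE). Fam47e was lower, at 14.9, 11.6 and 6.90 CPM in DKO non-tumour liver and 0.490, 2.84 and 2.10 CPM in DKO tumours, with no overlap and a log2 fold change of -2.62.

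The largest differences on the high side were led by single tumours. Afp was 8.28, 27.2 and 21.6 CPM in DKO non-tumour liver and 2302, 197 and 289.8 CPM in DKO tumours, a log2 fold change of 5.61 ± 1.25 (SE). Steap2, a metalloreductase in the first high stretch, was 9.09, 6.16 and 18.9 CPM against 189.5, 28.9 and 23.3 CPM, and Parm1, a membrane mucin, was 0.637, 1.10 and 1.92 CPM against 14.4, 3.47 and 2.22 CPM, both with tumour 1 in the lead. Bhlha15, a transcription factor of secretory cells also called Mist1, was led by tumour 2 instead, at 0.637, 0.548 and 0.431 CPM against 1.44, 15.2 and 3.45 CPM. Hsph1, a heat shock chaperone, reached 307 CPM in tumour 1 but stood at 35.2 and 55.6 CPM in the others, which overlap the 40.2 to 47.0 CPM of non-tumour liver. Mafk, a small Maf partner of NRF2, was more even, at 24.5, 31.4 and 25.8 CPM against 58.4, 62.4 and 32.5 CPM, with no overlap and a log2 fold change of 0.91 ± 0.23 (SE). Zfand2a, a proteasome-associated stress protein, was 20.2, 25.3 and 34.0 CPM in DKO non-tumour liver and 75.9, 53.7 and 41.0 CPM in DKO tumours, and 21.9, 18.1 and 20.1 against 29.0, 61.1 and 37.0 CPM in Atg7KO, so that in neither genotype did tumour and non-tumour values overlap. Without tumour 1 the log2 fold changes were 3.30 for Sema3e, 3.68 for Afp, 1.19 for Steap2, 1.21 for Parm1 and 0.06 for Hsph1, and without tumour 2 that of Bhlha15 was 2.19.

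By position, the group difference in the DKO tumours was highest in the first 10 Mb, at 0.33 over 29 members, and lowest at 40 to 50 Mb, at -0.22. The most abundant genes of the first window differed little or unevenly between the groups. Steap4, a metalloreductase, was 340.4, 653 and 314 CPM in DKO non-tumour liver and 137, 679 and 385 CPM in tumours, and Cyp51, of cholesterol synthesis, was 175, 306 and 217 CPM against 103, 478 and 291 CPM. Tumour 2 was the highest and tumour 1 the lowest of the 3 in both genes. In the lowest window, Lap3, a leucine aminopeptidase, was 322, 338 and 249 CPM against 182, 171 and 211 CPM, with no overlap, and Tapt1, a transmembrane protein, was 87.6, 82.5 and 96.3 CPM against 62.2, 47.5 and 89.4 CPM, which overlap. The window differences in Atg7KO ran from -0.18 at 30 to 40 Mb to 0.055 at 70 to 80 Mb.

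Chromatin regulators were the list with the most members on the high side, as 12 of 18 were higher and 0 lower at an unadjusted p under 0.05 and 10 were higher without overlap, against 12.7%, 11% and 13.7% of all genes. Their median log2 fold change was 0.61, which became 0.07 when gene length entered the fit as an offset. Trrap, a scaffold of histone acetyltransferase complexes, was 26.8, 16.0 and 29.4 CPM in DKO non-tumour liver and 74.9, 76.5 and 48.1 CPM in tumours. Its log2 fold change of 1.46 ± 0.26 (SE) became 0.77 with the length offset. Kmt2c, a histone H3 lysine methyltransferase, was 14.0, 13.8 and 17.7 CPM against 32.4, 22.3 and 20.1 CPM, and its log2 fold change of 0.72 turned to -0.14 with the offset. The cause of the length trend was not tested.

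Other lists were mixed, and their counts at an unadjusted p under 0.05 stand against 12.7% higher and 11% lower of all genes. Cytoskeleton genes had a median log2 fold change of 0.47, which was 0.57 with the length offset, and 4 of 14 were higher and 0 lower at an unadjusted p under 0.05. Cell cycle and DNA repair genes had a median of 0.41 and 0.24 with the offset, with 6 higher and 1 lower of 23. Ribosomal and respiratory genes had a median of -0.33 that turned to 0.12 with the offset, with 1 higher and 4 lower of 20. Metabolic genes had 5 higher and 5 lower of 35, shares near those of all genes. Cad, the multifunctional enzyme that starts pyrimidine synthesis, was 7.43, 7.94 and 8.40 CPM in DKO non-tumour liver and 28.3, 13.8 and 13.8 CPM in tumours, while Qdpr, which regenerates tetrahydrobiopterin, was 463, 523 and 293 CPM against 102, 184 and 216 CPM. Qdpr did not overlap between groups and had a log2 fold change of -1.35 ± 0.39 (SE) with an adjusted p of 0.115 in edgeR. Khk was 425, 376 and 308 CPM against 54.2, 135 and 249 CPM, with the lowest value in tumour 1. Summed macrophage markers ran from 2570 to 3585 CPM in DKO non-tumour liver and 1313 to 2187 CPM in DKO tumours, and lymphocyte markers from 77.6 to 183 and 62.1 to 73.4 CPM, and their part in these values was not tested.

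**Figure D5:**
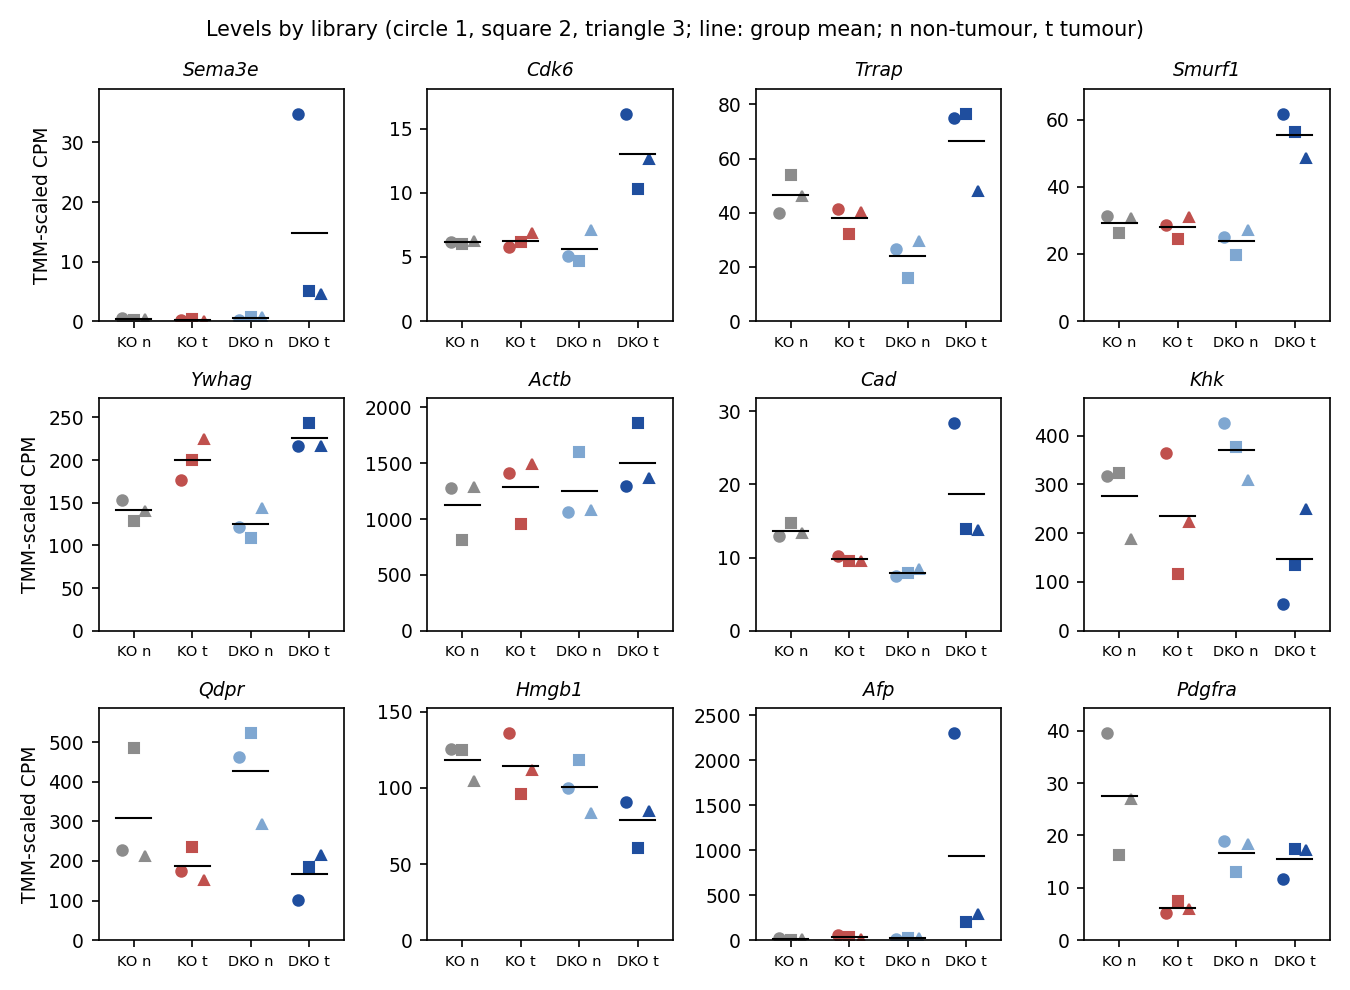
CPM of 12 chromosome 5 members in each library by group, with circles, squares and triangles for replicates 1, 2 and 3. Smurf1, Cdk6 and Trrap lie higher in all 3 DKO tumours than in DKO non-tumour liver, whereas Sema3e and Afp are led by tumour 1.

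In Atg7KO tumours the members leaned the other way. No member passed an adjusted p of 0.05 in edgeR, where 0% of all genes did. At an unadjusted p under 0.05, 29 were higher and 92 lower, against 8% and 8.58% of all genes, which are 3.41% and 10.8% of members. The groups did not overlap for 51 higher and 127 lower members, against 11.7% and 11.9% of all genes, and DESeq2 called 6 higher and 24 lower of 846, against 1.72% and 2.31%. Growth factor and receptor genes had 2 higher and 6 lower of 17 at an unadjusted p under 0.05, against the same 8% and 8.58% of all genes. Pdgfra, a platelet-derived growth factor receptor that marks stellate cells, was 39.6, 16.2 and 26.9 CPM in Atg7KO non-tumour liver and 5.15, 7.44 and 5.90 CPM in tumours. Its log2 fold change was -2.16 ± 0.32 (SE) with an adjusted p of 0.0797 in edgeR, and -2.43 with an adjusted p of 0.0405 without Atg7KO non-tumour liver 2. The 12 stellate markers summed to 717 to 1313 CPM in Atg7KO non-tumour liver and to 385 to 546 CPM in tumours, with no marker at 0, and the endothelial ones to 481 to 598 and 398 to 458 CPM, and their part in Pdgfra was not tested.

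Fgfr3, a fibroblast growth factor receptor, was 53.0, 55.9 and 65.4 CPM in Atg7KO non-tumour liver and 17.3, 18.9 and 18.6 CPM in tumours, with no overlap and a log2 fold change of -1.67 ± 0.39 (SE). Tbx3, a transcription factor and Wnt target of hepatocytes, was 20.6, 37.4 and 42.0 CPM against 6.09, 2.96 and 2.95 CPM, with a log2 fold change of -3.06 ± 0.66 (SE) and an adjusted p of 0.113 in edgeR. All 9 members of the Cyp3a group and its partners had a log2 fold change below 0, with a median of -1.33. Of them 5 were lower at an unadjusted p under 0.05 in edgeR, against 8.58% of all genes. The Cyp3a genes are near copies that may share reads, so they are not separate observations. Cyp3a16, a drug-metabolising cytochrome with a sex-biased pattern in mice, was 9.19, 114 and 15.0 CPM in Atg7KO non-tumour liver and 0.255, 2.47 and 0.172 CPM in tumours. Cyp3a11, the main hepatic member, was 2046, 4277 and 2220 CPM against 733, 318 and 1702 CPM. Psph went the other way, at 10.4, 8.04 and 8.93 CPM in non-tumour liver and 41.6, 27.8 and 19.6 CPM in tumours, a log2 fold change of 1.70 ± 0.30 (SE) with an adjusted p of 0.0970 in edgeR. Trpv4 was also higher, at 4.36, 2.55 and 2.27 CPM against 17.2, 10.8 and 9.23 CPM, as was Ugt2b35, a glucuronosyltransferase, at 361, 204 and 299.8 CPM against 562, 559.9 and 747 CPM. Slc5a1, the intestinal-type sodium and glucose cotransporter, was 17.0, 12.1 and 18.3 CPM against 1.32, 5.53 and 1.51 CPM, a log2 fold change of -2.50. Among inflammation genes, Cxcl5, a neutrophil chemokine, was 0.752, 0.279 and 0.440 CPM in Atg7KO non-tumour liver and 11.5, 0.564 and 4.53 CPM in tumours. Spp1, the secreted phosphoprotein osteopontin, reached 6404 CPM in Atg7KO tumour 2 and 308 to 1101 CPM in the other 11 libraries, and in that library the bile duct markers summed to 6657 CPM, against 455 to 1384 CPM in the others, a part that was not tested. In DKO, Psph was 8.24, 13.4 and 11.8 CPM against 17.4, 25.01 and 28.7 CPM.

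Between genotypes in tumours, edgeR called no member, against 0.0527% of all genes. Genotype and sex cannot be told apart in this comparison. At an unadjusted p under 0.05, 130 members were higher and 22 lower in DKO tumours, which is 15.3% and 2.59% of members, against 8.53% and 8.38% of all genes. The groups did not overlap for 139 and 22 members, against 10.3% and 10.5%, and DESeq2 called 38 and 1 of 846, against 1.68% and 1.78%. Sema3c, a guidance factor like Sema3e, was 1.11, 0.740 and 0.789 CPM in Atg7KO tumours and 7.70, 5.83 and 9.53 CPM in DKO tumours, a log2 fold change of 3.13 ± 0.50 (SE) with an adjusted p of 0.0517 in edgeR. Sema3e had a log2 fold change of 6.04 ± 0.96 (SE), also with an adjusted p of 0.0517 in edgeR. Fgfbp1, a carrier of fibroblast growth factors, was 0.553, 0.0352 and 0.343 CPM in Atg7KO tumours and 286, 1.14 and 3.76 CPM in DKO tumours, a log2 fold change of 8.31 that was 3.00 without DKO tumour 1. On the lower side, Evc, a protein of the primary cilium, was 10.4, 17.3 and 5.15 CPM in Atg7KO tumours and 1.93, 4.54 and 4.10 CPM in DKO tumours, and Trpv4, a cation channel, was 17.2, 10.8 and 9.23 CPM in Atg7KO tumours and 0.778, 6.66 and 3.26 CPM in DKO tumours, with a log2 fold change of -1.80 ± 0.61 (SE). Clip1, which binds growing microtubule ends, was 36.7, 49.7 and 58.0 CPM in Atg7KO tumours and 126, 119 and 81.1 CPM in DKO tumours.

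The difference between the tumour effects of the genotypes was tested as an interaction, in which edgeR called no member, against 0% of all genes. At an unadjusted p under 0.05, 130 members had a higher and 22 a lower effect in DKO, against 9.86% and 8.95% of all genes, and DESeq2 called 29 and 2, against 1.42% and 1.37%. The median interaction was 0.23 over members and 0.03 over all genes on the log2 scale, and its Spearman correlation with gene length across genes was 0.61. In non-tumour liver 66 members were higher and 80 lower in DKO at an unadjusted p under 0.05, which is 7.76% and 9.40% of members, against 7.74% and 8% of all genes. There too edgeR called no member, against 0.0602% of all genes, while DESeq2 called 2 higher and 5 lower, against 0.679% and 0.792%. The groups did not overlap for 125 higher and 119 lower members, which is 14.7% and 14.0% of members, against 11.9% and 12.4%. Sult1e1, the estrogen sulfotransferase, was 10.7, 2.55 and 2.94 CPM in Atg7KO and 33.2, 185 and 83.1 CPM in DKO non-tumour liver, with no overlap and a log2 fold change of 4.20. Tmem120a, a nuclear envelope membrane protein, was 36.6, 57.9 and 38.0 CPM against 130.3, 107 and 62.0 CPM. Lower in DKO were Cyp3a16, at 9.19, 114 and 15.0 CPM against 0.00, 3.83 and 0.332 CPM, and Prom1, a membrane glycoprotein known as a progenitor marker, at 43.6, 31.2 and 52.7 CPM against 4.54, 13.7 and 21.2 CPM. Cyp3a16 is known for sex-biased liver expression in mice, and Xist and Y-linked reads split these same groups.

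Hmgb1, the deleted gene in DKO mice (149047227 to 149053037), was 126, 125 and 104 CPM in Atg7KO non-tumour liver and 99.9, 119 and 83.6 CPM in DKO non-tumour liver, which overlap, with a log2 fold change of -0.23 and an adjusted p of 0.606 in edgeR. In tumours it was 136, 95.9 and 112 CPM in Atg7KO and 90.6, 60.6 and 85.1 CPM in DKO, with no overlap, a log2 fold change of -0.54 ± 0.21 (SE) and an adjusted p of 0.246 in edgeR. DKO tumour 2 was the lowest of the 12 libraries, and the gene lies in its last low stretch, where Uspl1, a SUMO protease nearby, also stood at -0.54. Gm8615, a predicted gene near Hmgb1 (149154128 to 149156192), had 1 read in DKO non-tumour liver 2 and 0 reads in DKO tumour 2, against 248 to 796 reads in the other 10 libraries.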

How the data were processed

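Total RNA of 12 liver libraries was sequenced, and the authors deposited raw counts per gene with gene length in bases. Per the submitters' processing notes, the tools were edgeR 3.20.8, featureCounts from Subread 1.5.3, STAR 2.5.3a and bcl2fastq, on mm10, and the library kit, strand setting and annotation release are not given in the sources used here. From the deposited counts, CPM and log2 CPM (prior count 2) were computed after TMM scaling, and genes with at least 1 CPM in 3 libraries kept. Deviations from the mean of the 12 libraries were corrected for gene length by lowess (span 0.3, statsmodels 0.14.6). Stretches were found by splitting the ordered deviations, limited to ±1.5, into constant levels by least absolute error with a penalty of 2 ln(n) and at least 10 members, a method chosen after seeing the data. Windows held at least 20 members. Genes were tested with edgeR 4.0.16 (quasi-likelihood, all 4 groups in 1 fit, R 4.3.3), with Benjamini-Hochberg adjustment over 13290 genes; DESeq2 1.42.0, RLE scaling, no filter, a length offset, a replicate block and leaving out each library were alternatives. An exact test of 3 against 3 libraries cannot go below 0.1. Total reads set counting error. Scripts were tested on simulated data. Genes named by rule were members called, the 5 largest differences each way at an unadjusted p under 0.05 with at least 5 CPM and no overlap, the leading and most abundant member of each list, Hmgb1 and its 3 neighbours on each side, and abundant members of extreme windows; Smurf1, Mapre3, Clip1, Cit, Rac1, Arpc1b, Asl, Atp5k, Fgfr3 and the genes at the edges of stretches were chosen after their values were seen. Members and lists were chosen with earlier results of these data known. The 27 gene names that had been turned into numbers were restored by accession.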

Additional observations from a re-analysis of the deposited data

Results flagged for a closer look

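The chromosome 5 score moved in opposite directions in the tumours of the 2 genotypes. Its tumour minus non-tumour difference was -0.079 in Atg7KO and 0.11 in DKO. All 3 DKO tumours lay above every non-tumour library of their genotype. In Atg7KO, tumours 2 and 3 lay below every non-tumour library, while tumour 1, at -0.010, was below their mean but within their range. The difference was not tested. Xist and Y-linked reads split the genotypes, so genotype and sex cannot be told apart here.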

How the results depend on the processing

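The direction of the chromosome 5 score held under every alternative run in the tumour comparisons. In DKO tumours it ran from 0.0815 to 0.130 when 1 library was left out, the lowest without DKO tumour 1. Between genotypes in non-tumour liver, where the score is near 0, it was -0.020 with members of at least 5 CPM and -0.011 to 0.014 leaving out 1 library. With the non-tumour libraries as reference, the highest 10 Mb window range among the other 11 libraries went from 0.469 to 0.706. That of DKO tumour 2 went from 0.781 to 0.949, and the cause was not tested. The number of stretches in DKO tumour 2 was 4 with a penalty of 3 ln(n) and 6 with the other penalties, corrections and references run. With 3 ln(n) the short high stretch was not found, and 424 members from Cacna2d1 to Hps4 stood at -0.28. Without the length correction the short high stretch began at Nudt9. With a penalty of 1.5 ln(n), Atg7KO non-tumour liver 1 had 3 stretches and Atg7KO tumour 3 had 4, and with 3 ln(n) DKO tumour 3 had 1. Counts of called members depended on the test. In Atg7KO tumours they were 1 with the replicate block (Cyp3a41a), 0 to 1 leaving out 1 library and 30 with DESeq2. Over all genes the same settings called 3, 0 to 3 and 611. In DKO tumours they were 0 to 34 leaving out 1 library (34 without DKO non-tumour liver 3) and 79 with DESeq2. Over all genes these were 0 to 680 and 1087. Between genotypes DESeq2 called 7 members in non-tumour liver, 39 in tumours and 31 for the interaction. The shares of all genes called there stand beside these comparisons above. Between genotypes in tumours, RLE scaling and no filter gave 1 member each. Leaving out 1 library there gave 0 to 4 members (4 without DKO tumour 3), and 7 to 30 over all genes. Same-numbered libraries deviated together in 2 of 6 pairs (correlation over 0.1), and 3 of 6 tumours correlated best with their own number, so numbers were not taken as pairs; against that, Gm8615 and Ifi202b were near 0 in both libraries of 1 DKO number each, and whether a number marks an animal is not given in the sources used here. Depth limits members near 1 CPM most.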

Other observations

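Ifi202b, on chromosome 1, showed the same kind of absence as Gm8615 but in DKO number 3, with 1 read in non-tumour liver and 2 in tumour against 396 to 2030 reads in the other 10 libraries. Each absence is thus shared by the tumour and non-tumour library of 1 number.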
